A study of Mus musculus with 21 samples.

Results

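Of the 56953 genes counted, 9 are described here, a named set of Fc, Fc-like and complement receptors and regulators of B cells. The set does not hold all such genes. They were matched by their GENCODE symbols, and all 9 were found. Fcer2a encodes CD23, the low-affinity receptor for IgE. Cr2 encodes complement receptors 1 and 2 (CD35 and CD21) by splicing. Cd55 and Cr1l encode the complement regulators decay-accelerating factor and Crry. Fcmr encodes the Fc receptor for IgM. Fcrl1, Fcrl5 and Fcrla encode Fc receptor-like proteins, and Fcer1g encodes the signaling gamma chain shared by activating Fc receptors. RNA was sequenced from B-2, B-1a and B-1b cells sorted from the peritoneal cavity of WT and TET2-KO mice, both C57BL/6. The TET2-KO mice lack the catalytic region of TET2 in every cell of the body. An effect of the loss in B cells and an effect of its loss elsewhere therefore cannot be told apart. B-1a cells gave 4 libraries in each genotype, B-1b cells 4 WT and 3 TET2-KO, and B-2 cells 2 WT and 4 TET2-KO. The labels of these libraries give no age and no treatment. The question of the study was what loss of TET2 changes in B-1 cells, and these genes are described by subset and by genotype.

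Complement that is bound to antigen engages CD21 on B cells, which signals within a coreceptor complex that holds CD81 and lowers the threshold for activation through the B cell receptor. Membrane regulators such as decay-accelerating factor and Crry limit the complement deposited on the cell itself. CD23 is a textbook surface marker of follicular B-2 cells, and CD21 of follicular and marginal zone B-2 cells. Both are low on peritoneal B-1 cells, which make much of the natural IgM. TET2 oxidizes methylated cytosines, mostly at CG dinucleotides, as a step toward their demethylation. CD23 also served to sort these cells, with the B-1 gates drawn at low CD23 and low IgD and split by CD5, so that Fcer2a differences between subsets are given below as a description only.

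Total counts per library ranged from 9667187 to 24152518. Levels are given as normalized counts per 1e+06 counts of the library (CPM). Tet2 was counted at 8.48 to 27.0 CPM in the WT libraries and at 12.8 to 33.4 CPM in the TET2-KO libraries, over the whole gene, most of which lies outside the deletion, so these counts do not check the genotype. Cd5, which divides B-1a from B-1b cells, and Ighd, the IgD heavy chain, do not match the labels of the libraries labelled WT 1 and WT 2. The library labelled B-1a WT 1 had 5.16 CPM of Cd5 and 3277 CPM of Ighd, whereas B-1a WT 3 and WT 4 had 19.6 and 22.6 CPM of Cd5 and 333 and 346 CPM of Ighd. The library labelled B-1b WT 1 had 17.9 CPM of Cd5, and B-1b WT 2 had 2488 CPM of Ighd. The library labelled B-1a WT 2 had 1.63 CPM of Cd5, and the library labelled B-2 WT 1 had 352 CPM of Ighd, against 2847 CPM in B-2 WT 4. All labels were kept. The plot of genotype effects shows every gene both over all libraries and after leaving these 5 out. The text gives the latter for the set and for part of the genes. Every library also held macrophage transcripts, with Lyz2 at 3959 to 27280 CPM. Nothing in the labels says that the libraries of a group came from separate mice, so the p-values measure the spread between libraries.

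The 250 bases upstream of the transcription start are shown for the 3 genes with the widest range between subsets in the TET2-KO libraries, because TET2 acts on methylated cytosine in CG dinucleotides. Capitals mark each CG. The sequences are those of RefSeq (GRCm38.p6), and each was matched uniquely to GRCm39, the build of the deposited files. They are written 5′ to 3′ on the strand of the gene, at chr8:3744175-3744424 on the minus strand for Fcer2a, at chr1:194859028-194859277 on the minus strand for Cr2 and at chr3:87342839-87343088 on the plus strand for Fcrl5.
Fcer2a: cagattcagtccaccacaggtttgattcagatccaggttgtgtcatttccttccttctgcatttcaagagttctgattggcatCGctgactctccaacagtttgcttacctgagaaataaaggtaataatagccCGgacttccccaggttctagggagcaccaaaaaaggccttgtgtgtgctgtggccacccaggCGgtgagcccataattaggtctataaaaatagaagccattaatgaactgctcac
Cr2: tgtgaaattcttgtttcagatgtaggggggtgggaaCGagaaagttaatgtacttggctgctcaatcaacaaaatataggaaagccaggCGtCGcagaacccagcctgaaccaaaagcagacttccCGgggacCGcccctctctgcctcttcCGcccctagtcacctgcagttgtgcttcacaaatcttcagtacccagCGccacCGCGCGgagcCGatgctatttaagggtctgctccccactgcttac
Fcrl5: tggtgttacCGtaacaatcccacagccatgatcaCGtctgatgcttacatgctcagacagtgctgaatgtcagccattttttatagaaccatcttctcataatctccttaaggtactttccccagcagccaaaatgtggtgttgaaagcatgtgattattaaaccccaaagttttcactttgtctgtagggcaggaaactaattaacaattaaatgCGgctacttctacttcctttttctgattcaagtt
RefSeq lists 3 starts for Fcer2a, of which 1 is shown. The Cr2 window holds 11 CG dinucleotides, while those of Fcer2a and Fcrl5 hold 3 each. The other members lie between, with 8 for Cd55, 5 for Cr1l and for Fcer1g and 4 for Fcmr and for Fcrl1, apart from Fcrla with 1. Over all 32851 promoters of 27025 genes in the same source the median was 6 (quartiles 2 and 16), so 2 of the 9 windows, those of Cr2 and Cd55, lay above the median. On either strand, TGGGAA, the core letters of the motif bound by RBPJ, the DNA-binding partner of Notch, stands once in the Cr2 window and in none of the other 8, and 21.6% of all promoters hold it. Methylation was not measured in these libraries, and the windows are a description.

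Some of these genes were called between subsets and others were called in no comparison of subsets. Within the TET2-KO libraries, whose subset labels matched Cd5 and Ighd, Cr2 and Fcrl1 were lower in both B-1 subsets than in B-2 cells, Fcrl5 was higher in both, and Cd55 was lower in B-1a cells. Cr1l, Fcmr, Fcrla and Fcer1g passed the test in none of the 3 comparisons of subsets. Leaving Fcer2a out, 1 of 8 genes was called higher and 3 of 8 lower in B-1a than in B-2 cells, where 3.26% of the 18555 genes tested were called higher and 2.57% lower. Between B-1b and B-2 cells, 1 of 8 was called higher and 2 of 8 lower, against 1.52% and 0.631% of all genes. Between B-1a and B-1b cells, 0 of 8 were called by edgeR's quasi-likelihood test (3 at an unadjusted p under 0.05, where 5.78% of all genes stood, and 1 by DESeq2, which called 0.649%), against 0.0108% of all genes higher and 0.194% lower. The median log2 fold change over the 8 genes was -0.02, -0.20 and -0.39 in these comparisons, against -0.05, -0.10 and 0.04 over all genes tested. A call is an adjusted p under 0.05 from edgeR's quasi-likelihood test over all genes. In a fit of subset and genotype over all 21 libraries, WT 1 and WT 2 included, none of the 7 calls against B-2 cells held. There 22 and 0 of 22597 genes were called. In the same fit without WT 1 and WT 2 the counts were again 4 and 3 of 8, with 3153 and 1330 of 27911 genes called. The plot of subset contrasts shows the estimates in the TET2-KO libraries with their standard errors (SE).

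**Figure D1:**
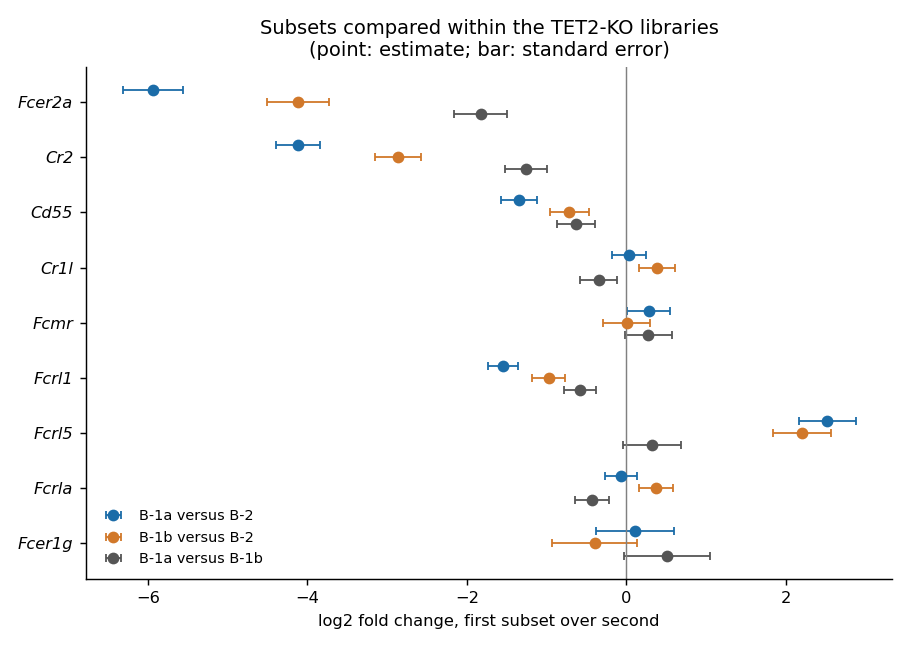
Log2 fold change of each gene between subsets within the TET2-KO libraries (x axis, first subset over second), with points for the estimate and bars for its standard error. Fcer2a, Cr2, Cd55 and Fcrl1 lie to the left of 0 in all 3 contrasts and Fcrl5 to the right, at 2.52 and 2.20 against B-2 cells.

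The comparison of genotypes called none of these genes. In B-1a cells 0 of 9 passed, with 3 (Fcer2a, Cr2 and Cd55) at an unadjusted p under 0.05 and 0 called by DESeq2, against 0.0503% of the 13923 genes tested. For the same 3 genes all TET2-KO libraries of B-1a cells lay below all WT libraries, and groups without overlap, in either direction, were found for 5.62% of all genes. In B-1b cells 0 of 9 passed (0 at an unadjusted p under 0.05, 0 by DESeq2), and 0% of all genes tested did. None of the 9 separated the B-1b groups, where 7.45% of all genes did. In B-2 cells 0 of 9 passed (1, Fcrl5, at an unadjusted p under 0.05, and 0 by DESeq2), against 0% of all genes, and none separated the groups, against 19.5% of all genes. Over all genes tested, 7.85% in B-1a, 5.48% in B-1b and 8.86% in B-2 cells had an unadjusted p under 0.05, and DESeq2 called 1.11%, 0.331% and 0.804% of those it gave an adjusted p. The TET2-KO effect differed between the B-1 subsets for 0 of the 9 (0 at an unadjusted p under 0.05 and 0 by DESeq2, against 1.57% and 0.00241% of all genes) and for 0% of all genes. The median log2 fold change of the 9 genes was -0.47 in B-1a, -0.02 in B-1b and -0.04 in B-2 cells, against 0.02, -0.01 and 0.18 over all genes.

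With WT 1 and WT 2 left out, edgeR again called 0 of 9 in each subset, with 2 in B-1a, 3 in B-1b and 0 in B-2 cells at an unadjusted p under 0.05, against 3.16%, 2.32% and 1.78% of all genes, of which 0% were called in each. This alternative left 2 WT libraries in each B-1 subset and 1 WT library of B-2 cells, which was assumed to vary like the TET2-KO libraries. In B-1a cells Fcer2a, Cr2 and Cd55 still lay lower in every TET2-KO library, 3 of 9 genes against 12.4% of all genes. In B-1b cells the same 3 were lower and Fcrl5 was higher in every TET2-KO library, 4 of 9 against 18.8% of all genes. The median over the 9 genes was then -0.30 in B-1a, 0.09 in B-1b and -0.24 in B-2 cells, against 0.02, 0.01 and 0.20 over all genes.

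**Figure D2:**
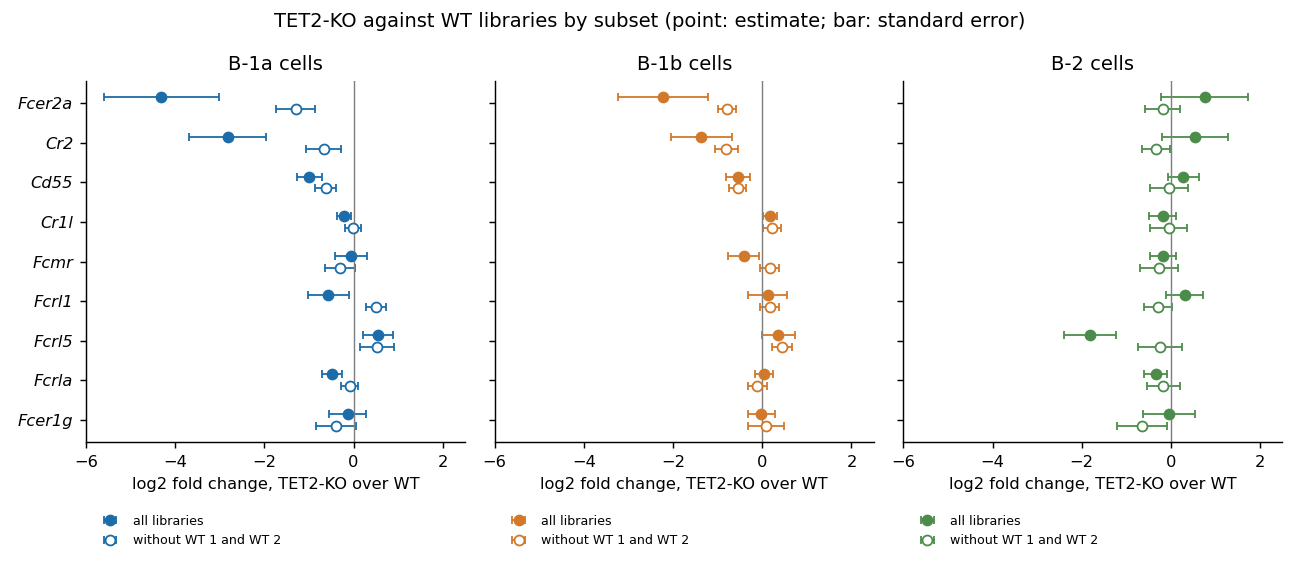
Log2 fold change of TET2-KO over WT (x axis) for each gene in each of the 3 subsets, with filled points for all libraries, open points with WT 1 and WT 2 left out, and bars for the standard error. The B-1a estimate of Fcer2a moves from -4.31 to -1.29 and that of Cr2 from -2.82 to -0.67 when these libraries are left out.

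Compared per kilobase of the exon length in the files, which is the union of all annotated exons, the level of Fcmr was the highest of the set in each TET2-KO subset, with a mean of 864 CPM per kb in B-1a, 715 in B-1b and 732 in B-2 cells. Fcrla came next, with a mean level of 238, 322 and 256 CPM per kb. In B-1a cells of TET2-KO mice, the order went on with Fcer1g (189), Cd55 (50.3), Fcrl5 (49.5), Fcrl1 (25.0), Cr1l (18.3), Fcer2a (3.48) and Cr2 (1.10), each a mean level in CPM per kb. Of the neighbours in this order, Fcrla and Fcer1g, Cd55 and Fcrl5, Fcrl5 and Fcrl1, and Fcrl1 and Cr1l overlapped within 1 SD. In B-2 cells Fcer2a stood in the third place at 220 CPM per kb, overlapping its neighbours Fcrla and Fcer1g within 1 SD, and Fcrl5 was the lowest at 8.83. The IgM receptor thus led the set in every TET2-KO subset, while Fcer2a was next to last in B-1a cells.

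**Figure D3:**
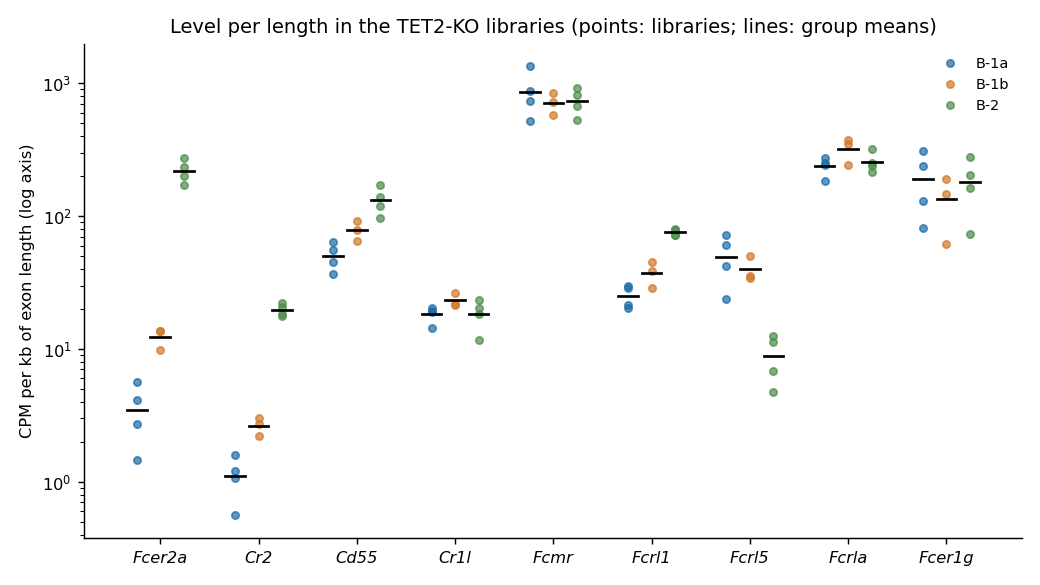
Level of each gene in CPM per kb of exon length (y axis, log axis) in the TET2-KO libraries of each subset, with points for libraries and lines for group means. Fcmr lies highest in all 3 subsets, and Cr2 lies lowest in B-1a and B-1b cells, at means of 1.10 and 2.64 CPM per kb.

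Fcer2a (ENSMUSG00000005540.11, GRCm39 chromosome 8 from 3731737 to 3744175) spanned the widest range of the set. In TET2-KO libraries 1 to 4 it was counted at 12.7, 17.4, 8.46 and 4.54 CPM in B-1a cells. The B-1b libraries 1 to 3 had 42.3, 42.0 and 30.3 CPM, and the B-2 libraries 1 to 4 had 617, 722, 846 and 533 CPM. The 3 subsets did not overlap, and the cells had been sorted by this protein, so the log2 differences of -5.94 (B-1a against B-2), -4.12 (B-1b against B-2) and -1.83 (B-1a against B-1b) are given without a test. In WT libraries 1 to 4, B-1a cells had 817, 18.2, 26.3 and 26.6 CPM, and B-1b cells had 16.6, 597, 63.7 and 70.3 CPM. The libraries labelled B-1a WT 1 and B-1b WT 2 were thus at the level of B-2 cells, while the library labelled B-2 WT 1 had 24.2 CPM against 758 CPM in B-2 WT 4.

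Every B-1a library of TET2-KO mice was below every WT library for Fcer2a, with a mean of 10.8 ± 5.52 CPM (SD, n = 4) against 222 ± 397 (n = 4), the log2 fold change being -4.31 (SE 1.30, adjusted p = 0.465). The SD of the WT group exceeds its mean because of 1 library. With WT 1 and WT 2 left out the WT mean was 26.4 ± 0.2398 CPM (n = 2) and the log2 fold change -1.29 (SE 0.44, adjusted p = 1.00). The value in B-1b cells was -2.23 (SE 1.01, adjusted p = 0.838), and -0.80 (SE 0.20, adjusted p = 0.999) without those libraries, where the unadjusted p was 0.00547. In B-2 cells it was 0.75 (SE 0.97, adjusted p = 0.696), and -0.19 (SE 0.39) without the library labelled WT 1. No difference in Fcer2a between the genotypes passed the test in any subset.

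**Figure D4:**
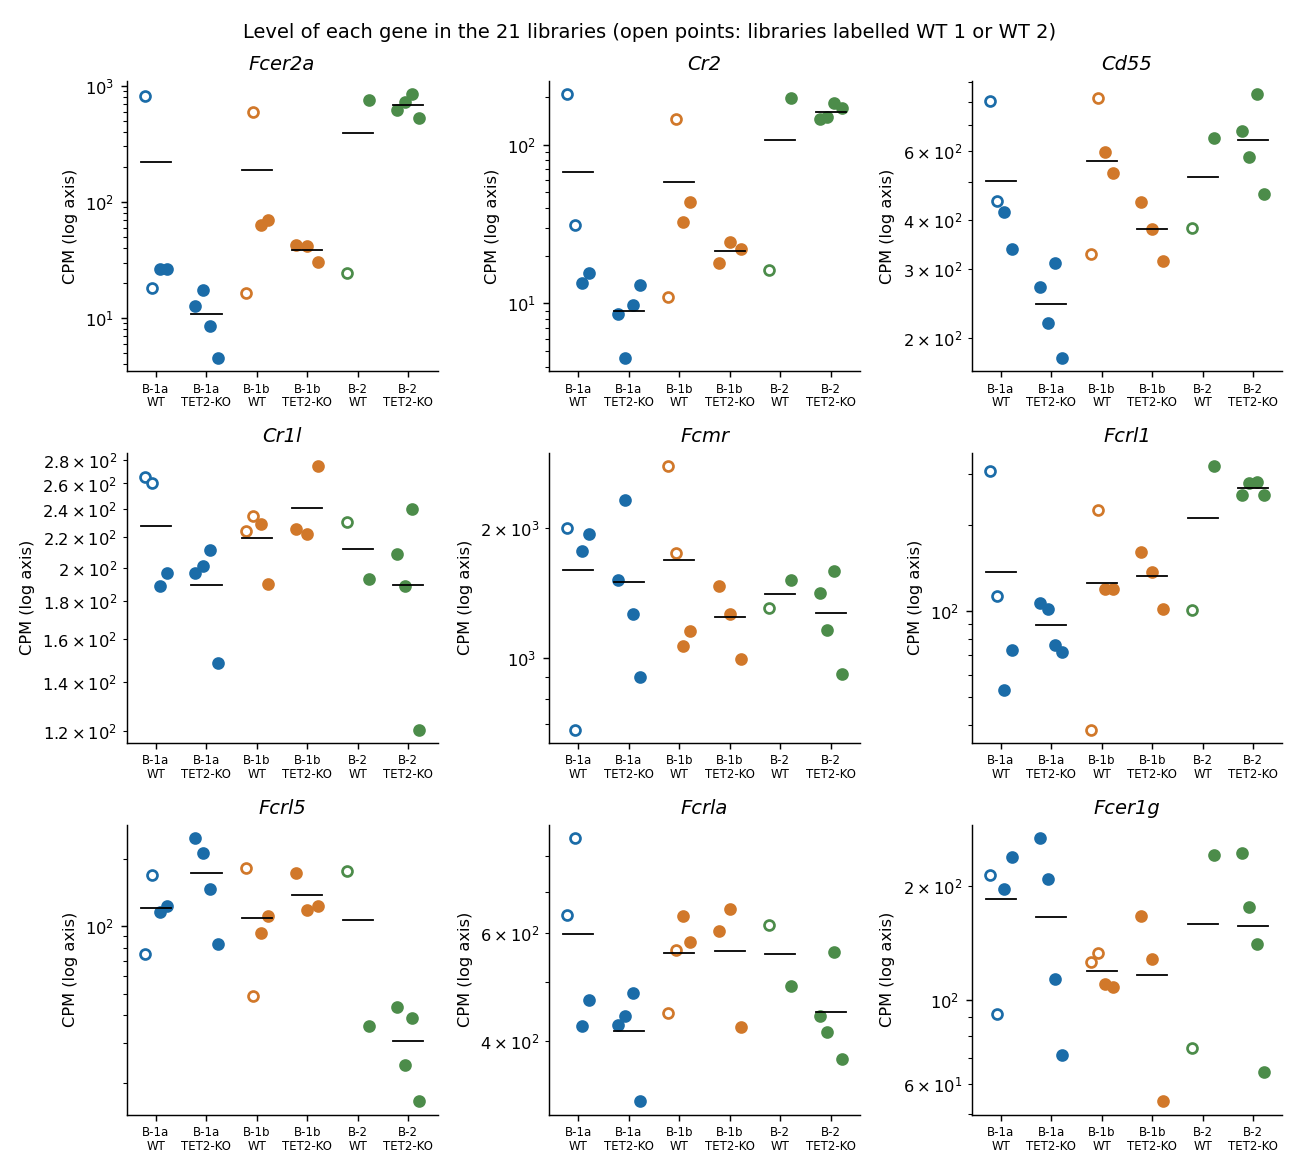
Level of each of the 9 genes in CPM (y axis, log axis) in every library by subset and genotype, with lines for group means and open points for the libraries labelled WT 1 or WT 2. Open points of Fcer2a and Cr2 stand at 817 and 207 CPM among WT B-1a libraries and at 597 and 144 CPM among WT B-1b libraries.

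Cr2 (ENSMUSG00000026616.17, chromosome 1 from 194819119 to 194859024) followed the same order of subsets. It was counted at 8.63, 4.54, 9.77 and 12.99 CPM in TET2-KO B-1a libraries 1 to 4 and at 18.0, 24.4 and 22.0 CPM in B-1b libraries 1 to 3. In B-2 cells it had 144, 149, 181 and 169 CPM, so that no B-1 library came near a B-2 library. Cr2 was 17.4-fold lower in B-1a than in B-2 cells (log2 fold change -4.12, SE 0.27, adjusted p = 6.97e-07) and 7.27-fold lower in B-1b cells (-2.86, SE 0.29, adjusted p = 5.95e-05). Unlike CD23, CD21 is not named among the proteins used to sort the cells. The log2 fold change between B-1a and B-1b cells was -1.26 (SE 0.26, adjusted p = 0.0917) with no overlap between the groups. This difference passed with DESeq2 (adjusted p = 0.0081), without a filter on low counts (1.13e-04), with the summed macrophage markers as a covariate (0.0238) and without TET2-KO 4 of B-1a cells (0.0228).

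By genotype, Cr2 had 207, 31.4, 13.4 and 15.5 CPM in WT B-1a libraries 1 to 4 and 10.98, 144, 32.5 and 43.7 CPM in WT B-1b libraries 1 to 4. The high values in each set come from the libraries that were also high in Fcer2a. The log2 fold change of TET2-KO over WT in B-1a cells was -2.82 (SE 0.87, adjusted p = 0.470), and -0.67 (SE 0.39, adjusted p = 1.00) with WT 1 and WT 2 left out. In B-1b cells it was -1.37 (SE 0.69, adjusted p = 0.838) and -0.81 (SE 0.25, adjusted p = 0.999) without them. The B-2 libraries of WT mice had 16.2 CPM (labelled WT 1) and 198 CPM (WT 4), and the estimate there changed sign from 0.55 to -0.33 when the former was left out. None of these values passed the test, which was not read for the estimate resting on a lone WT library.

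Cd55 (ENSMUSG00000026399.13, chromosome 1 from 130366764 to 130390481) shares 169 bases of exon with Gm16083 on the opposite strand, which had at most 103 counts in a library, and reads of its close paralog Cd55b cannot all be assigned. Its TET2-KO B-1a libraries 1 to 4 had 270, 219, 310 and 178 CPM, against 674, 580, 837 and 466 CPM in B-2 cells. Both sets of values did not overlap, and Cd55 was 2.55-fold lower in B-1a cells (log2 fold change -1.35, SE 0.23, adjusted p = 0.00176). The B-1b libraries had 445, 379 and 314 CPM, between the other subsets, and the difference from B-2 cells (-0.71, SE 0.25, adjusted p = 0.142) did not pass. It did with DESeq2 (adjusted p = 0.0130), without a filter on low counts (0.0346) and with at least 10 counts in every library (0.0397).

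In WT mice Cd55 was at 803, 447, 418 and 338 CPM in B-1a libraries 1 to 4, all above the TET2-KO libraries. The mean was 501 ± 206 CPM in WT and 244 ± 57.8 CPM in TET2-KO B-1a cells (SD, n = 4 each), the log2 fold change being -0.99 (SE 0.27, adjusted p = 0.362). Leaving out WT 1 and WT 2 gave -0.62 (SE 0.23, adjusted p = 1.00). Without a filter on low counts the difference over all libraries, WT 1 and WT 2 included, passed (-1.06, SE 0.17, adjusted p = 6.68e-07). That fit called 318 of 38366 genes, against 7 of 13923 in the main fit. The WT B-1b libraries had 328, 818, 596 and 526 CPM, overlapping the TET2-KO libraries, with the log2 fold change being -0.55 (SE 0.28, adjusted p = 0.838), and -0.55 (SE 0.19, adjusted p = 0.999) without WT 1 and WT 2. In B-2 cells the WT libraries had 381 and 649 CPM, within the range of the TET2-KO libraries, and the log2 fold change was 0.28 (SE 0.34).

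Other markers of B-2 cells differed in how they ran beside these 3 genes across the B-1a libraries. Ighd was at 179 to 3277 CPM in WT and 355 to 512 CPM in TET2-KO B-1a libraries, and at 333 and 346 CPM in WT 3 and WT 4, below each TET2-KO library. Cxcr5, the chemokine receptor of B cell follicles, was at 535 to 739 CPM in WT and 217 to 538 CPM in TET2-KO B-1a libraries. Ccr7, a chemokine receptor of B-2 cells, T cells and dendritic cells, stood at 174 to 1083 CPM in WT libraries, with 174 and 208 CPM in WT 3 and WT 4, and at 28.7 to 115 CPM in the TET2-KO libraries. Of the 8 dendritic cell markers, which include Ccr7, the sum was 198 to 1197 CPM in WT and 34.7 to 131 CPM in TET2-KO B-1a libraries. In each WT B-1a library 4 of them reached 1 CPM, and in the TET2-KO B-1a libraries 3 to 4 did. Xcr1 and Clec9a were not among these, at most 0.313 and 0.263 CPM in B-1a libraries. The part of other cells in the lower values of Fcer2a, Cr2 and Cd55 was not tested. In bulk RNA, fewer cells that carry a transcript and less of it per cell cannot be told apart.

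Cr1l (ENSMUSG00000016481.16, chromosome 1 from 194779690 to 194813894), the other complement regulator, passed no test by subset or genotype. It lay between 149 and 211 CPM in TET2-KO B-1a, between 222 and 275 CPM in B-1b and between 121 and 240 CPM in B-2 libraries. The WT libraries lay between 189 and 266 CPM. Its log2 fold changes between subsets were 0.03 (SE 0.21, adjusted p = 0.946) for B-1a against B-2, 0.38 (0.23 and 0.364) for B-1b against B-2 and -0.35 (0.23 and 0.858) for B-1a against B-1b cells. The TET2-KO effect was -0.22 in B-1a (SE 0.16, adjusted p = 0.673), 0.17 in B-1b (0.16 and 0.847) and -0.19 in B-2 cells (0.31 and 0.759).

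Fcmr (ENSMUSG00000042474.7, chromosome 1 from 130793406 to 130808528), the receptor for the antibody class that B-1 cells secrete, was abundant in all libraries. It was counted at 1513, 2320, 1265 and 904 CPM in TET2-KO B-1a libraries, at 1470, 1263 and 991 CPM in B-1b libraries and at 1417, 1162, 1587 and 915 CPM in B-2 libraries. These ranges overlap throughout. The log2 fold change was 0.28 (SE 0.27, adjusted p = 0.573) for B-1a against B-2 cells, 0.00 (0.29 and 0.998) for B-1b against B-2 cells and 0.27 (0.29 and 0.895) for B-1a against B-1b cells. In WT mice it had 2005, 681, 1773 and 1940 CPM in B-1a libraries 1 to 4 and 2789, 1747, 1067 and 1154 CPM in B-1b libraries 1 to 4, the widest spread coming from libraries labelled WT 1 and WT 2. The TET2-KO effect was -0.06 in B-1a (SE 0.36, adjusted p = 0.968), -0.42 in B-1b (0.34 and 0.839) and -0.18 in B-2 cells (0.30 and 0.765), and in B-1b cells it turned to 0.17 (SE 0.21) without those libraries.

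Of the Fc receptor-like genes, Fcrl1 and Fcrl5 lie near each other on chromosome 3 and ran in opposite directions across the subsets. Fcrl1 (ENSMUSG00000059994.11, from 87283694 to 87310241), an activating coreceptor of B cells, had 106, 102, 75.9 and 72.1 CPM in TET2-KO B-1a libraries, 161, 137 and 102 CPM in B-1b and 255, 281, 282 and 254 CPM in B-2 libraries. Both B-1 subsets lay below every B-2 library. Fcrl1 was 2.93-fold lower in B-1a cells (log2 fold change -1.55, SE 0.19, adjusted p = 1.17e-04) and 1.96-fold lower in B-1b cells (-0.97, SE 0.21, adjusted p = 0.0208). The B-1b call was lost without B-1b TET2-KO 2 (adjusted p = 0.0838), B-2 TET2-KO 2 (0.0591) or B-1b TET2-KO 3 (0.05001). The log2 fold change between B-1a and B-1b cells was -0.58 (SE 0.20, adjusted p = 0.715).

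Fcrl5 (ENSMUSG00000048031.16, from 87343080 to 87407985), which can inhibit B cell receptor signaling, had 249, 212, 146 and 83.2 CPM in TET2-KO B-1a libraries and 173, 118 and 123 CPM in B-1b libraries. In B-2 libraries it had 43.7, 23.9, 38.9 and 16.5 CPM, below each B-1 library. It was 5.73-fold higher in B-1a than in B-2 cells (log2 fold change 2.52, SE 0.36, adjusted p = 4.88e-04) and 4.60-fold higher in B-1b cells (2.20, SE 0.37, adjusted p = 0.00434). The B-1 subsets overlapped (0.32, SE 0.36, adjusted p = 0.898). Markers of B-1 cells, all 8 detected, summed to 1227 to 1769 CPM in B-1a, 1091 to 1542 CPM in B-1b and 370 to 513 CPM in B-2 libraries of TET2-KO mice.

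By genotype, Fcrl1 had 308, 113, 53.0 and 73.4 CPM in WT B-1a libraries 1 to 4. The log2 fold change of TET2-KO over WT was -0.56 (SE 0.47, adjusted p = 0.703) and turned to 0.51 (SE 0.22, adjusted p = 1.00) with WT 1 and WT 2 left out, so that even its direction rested on them. In WT B-1b libraries 1 to 4 it had 38.6, 224, 119 and 119 CPM, with an effect of 0.12 (SE 0.45, adjusted p = 0.961). Fcrl5 had 75.4, 169, 116 and 123 CPM in WT B-1a and 182, 48.9, 92.9 and 112 CPM in WT B-1b libraries 1 to 4, and its TET2-KO effect was 0.55 (SE 0.33, adjusted p = 0.646) and 0.36 (SE 0.38, adjusted p = 0.857). With WT 1 and WT 2 left out these were 0.53 (SE 0.38) and 0.45 (SE 0.22, adjusted p = 0.999), and the B-1b groups then did not overlap. The WT B-2 libraries had 177 CPM of Fcrl5 (labelled WT 1) and 35.9 CPM (WT 4), and the effect in B-2 cells went from -1.81 (SE 0.58, adjusted p = 0.531) to -0.24 without the former.

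Fcrla (ENSMUSG00000038421.14, chromosome 1 from 170745145 to 170755152), an intracellular relative of the Fc receptors, passed no test. It lay between 319 and 479 CPM in B-1a, between 422 and 657 CPM in B-1b and between 374 and 558 CPM in B-2 libraries of TET2-KO mice. In WT mice the highest value was 857 CPM, in the library labelled B-1a WT 2, and the lowest 424 CPM, in B-1a WT 3. The log2 fold changes between subsets were -0.06 (SE 0.20, adjusted p = 0.880) for B-1a against B-2, 0.37 (0.22 and 0.357) for B-1b against B-2 and -0.43 (0.22 and 0.858) for B-1a against B-1b cells. The TET2-KO effect was -0.47 in B-1a cells (SE 0.22, adjusted p = 0.629), and -0.09 with WT 1 and WT 2 left out.

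Fcer1g (ENSMUSG00000058715.12, chromosome 1 from 171057141 to 171061934) is best known from myeloid, mast and natural killer cells, and its level followed the macrophage transcripts of each library. It was counted at 269, 209, 113 and 71.5 CPM in TET2-KO B-1a libraries 1 to 4, at 167, 128 and 53.9 CPM in B-1b libraries 1 to 3 and at 244, 177, 141 and 64.5 CPM in B-2 libraries 1 to 4. The groups overlap widely. The summed level of the 13 macrophage markers other than Lyz2 was 961 to 5360 CPM in B-1a, 1392 to 2965 CPM in B-1b and 707 to 4533 CPM in B-2 libraries of TET2-KO mice. In WT mice it was 1521 to 4013, 1966 to 2156 and 1408 to 4060 CPM. Per 100 CPM of these markers, Fcer1g had 3.87 CPM in B-1b TET2-KO 3 at the lowest and 9.11 CPM in B-2 TET2-KO 4 at the highest. At least 12 of the 13 markers reached 1 CPM in every library, Adgre1 with 44.9 to 392 CPM and Fcgr1, which can be at 0, with up to 9.51 CPM. Mast cell and basophil markers, which include partners of the gamma chain, summed to 297 to 1238 CPM with Cpa3 at 56.8 to 245 CPM. The partners were far lower, Fcer1a at 3.69 to 21.6 CPM and Ms4a2 at 0 to 5.81 CPM. Kit was at 1.23 to 6.11 CPM and Mcpt8 at 0 to 0.651 CPM. Most of the sum thus lay in the other listed markers, Mcpt4, Tpsb2 and Cma1. In B-2 TET2-KO 3 the sum was 1238 CPM, with Cpa3 at 245 CPM.

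The log2 fold change of Fcer1g was 0.11 (SE 0.49, adjusted p = 0.919) for B-1a against B-2, -0.40 (0.53 and 0.719) for B-1b against B-2 and 0.51 (0.53 and 0.894) for B-1a against B-1b cells. With the replicate number as a block in the edgeR fit, the value for B-1b against B-2 cells passed (-0.75, SE 0.17, adjusted p = 0.0388). That fit called 667 of 18555 genes. The TET2-KO effect was -0.13 in B-1a (SE 0.41, adjusted p = 0.926), -0.02 in B-1b (0.30 and 0.992) and -0.04 in B-2 cells (0.58 and 0.973). With the summed macrophage markers as a covariate, these effects became 0.24, 0.36 and 0.24, with an adjusted p of 0.826, 1.00 and 0.716. How much of the Fcer1g counts comes from B cells was not tested.

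**Figure D5:**
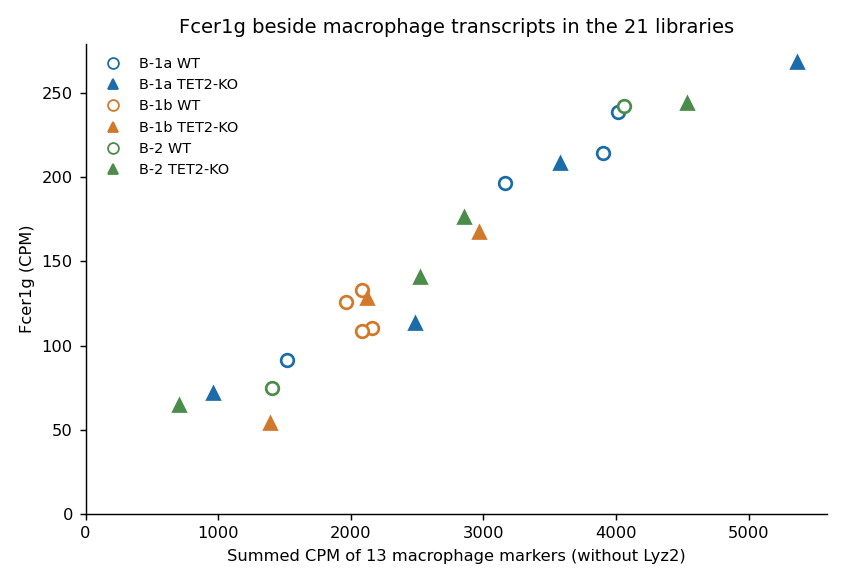
Level of Fcer1g in CPM (y axis) against the summed CPM of 13 macrophage markers without Lyz2 (x axis) in each of the 21 libraries, colored by subset, with circles for WT and triangles for TET2-KO. Fcer1g runs from 53.9 to 269 CPM as the marker sum runs from 707 to 5360 CPM, with all subsets and genotypes along the same band.

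Over the 21 libraries, which fall into subsets and share macrophage transcripts, so that the points are not independent, the genes most like each member by Pearson's r of log2(CPM + 1) were found among 13039 genes with a mean of at least 1 CPM. For Fcer2a they were Vpreb3 and Neurl3 (r = 0.964 each), and Fcer2a and Cr2 had r = 0.954 with each other. Cr2 was most like Pxdc1 (0.969) and Smad7 (0.961), and Cd55 was most like Itprip (0.956). Fcrl1 was most like Kmo and Evl (0.962 each), whereas Fcrl5 was most like Itgb1 (0.977), the beta 1 integrin, and Adk (0.961). Fcer2a ran with Fcrl1 (r = 0.893) and with Cd55 (0.875) and against Fcrl5 (-0.83). Of the genes not called between subsets, Cr1l, Fcrla and Fcmr had looser partners. The r was 0.93 for Cr1l and Cept1, 0.878 for Fcrla and Dtd1 and 0.803 for Fcmr and Cd83. Fcer1g, also not called, had close partners in Fcgr3 and Ccl6 (0.969 each), both known from myeloid cells.

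A fixed list of 30 other genes of the same pathways held 13 Fc receptors and chains, 16 complement receptors, coreceptors and regulators, and Adam10, the protease that cleaves CD23 from the surface. Of these, 25 to 28 were tested in the comparisons over all libraries. In none was a gene of the list called by edgeR. By genotype, 3 of 25 in B-1a, 4 of 26 in B-1b and 0 of 28 in B-2 cells stood at an unadjusted p under 0.05. Of all genes, 7.85%, 5.48% and 8.86% did. Between subsets it was 6 of 27 in B-1a against B-2, 5 of 27 in B-1b against B-2 and 5 of 27 in B-1a against B-1b cells. Of all genes, 24.7%, 19.6% and 5.78% stood there. For the difference in effect it was 0 of 27, against 1.57%. DESeq2 called 1 gene (Fcgrt) in B-1a against B-2 cells, where it called 14.6% of all genes, 2 (Fcrlb and C5ar2) in B-1b against B-2 cells, where it called 11.9%, and 0 in the other comparisons. These 3 genes are named after their values were seen. Cd81, a signaling partner of CD21, lay between 228 and 686 CPM over all libraries. Fcgr2b, the inhibitory IgG receptor of B cells, lay between 124 and 352 CPM, with a TET2-KO effect of -0.20 in B-1a (adjusted p = 0.771) and 0.36 in B-1b cells (adjusted p = 0.839). Adam10 was at 35.9 to 95.0 CPM, with the log2 fold change being 0.53 (adjusted p = 0.127) in B-1a against B-2 cells.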

How the data were processed

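RNA of sorted peritoneal B cells was measured in 21 libraries. The authors trimmed reads with fastp, aligned them with STAR to GRCm39 and counted fragments per gene with featureCounts 1.6.1 on GENCODE vM32, without regard to strand, and the deposited values are raw whole counts. Fragments that aligned to several places or overlapped several genes were left uncounted. The labels describe poly-T selection of mRNA, the paper amplified cDNA from total RNA. Groups were taken from the deposited labels. The members and lists were chosen with earlier results of these data known, and the rule for naming was all 9 members, called genes of a fixed list of 30, and the 2 genes most like each member. Some items under this rule and of the marker lists are not reported here. Symbols came from GENCODE vM39 (56310 of 56953 genes). Each genotype comparison was fitted within its subset, and the subset comparisons on the 11 TET2-KO libraries, with TMM normalization and filterByExpr by group in edgeR 4.0.16 (under R 4.3.3, with limma 3.58.1), robust quasi-likelihood fits, two-sided tests and Benjamini-Hochberg adjustment at 0.05. The fits were tested on simulated data. Alternatives were DESeq2 1.42.0, other filters and normalizations, a replicate block, a macrophage covariate, fits over more libraries and each library left out in turn. CPM of single libraries are TMM-normalized over all 21. No file pair was identical (0 of 210). Counting error alone is small for counts of this size, and no molecular identifiers were used.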

Additional observations from a re-analysis of the deposited data

Results flagged for a closer look

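In groups of at least 4 libraries, a value was flagged when the gap between the highest or lowest library and its nearest neighbour took up most of the range of the group (Dixon's test at 95%). Of 36 groups tested over the 9 genes, 3 were flagged, and chance flags about 1 in 20. All 3 lie in libraries labelled WT 1 or WT 2. Fcer2a was at 817 CPM in the library labelled B-1a WT 1, with the other WT B-1a libraries at 18.2 to 26.6 CPM. In the library labelled B-1b WT 2 it was at 597 CPM, with the others at 16.6 to 70.3 CPM. Cr2 was at 207 CPM in the library labelled B-1a WT 1, with the others at 13.4 to 31.4 CPM. The levels of Ighd moved with these values, at 3277 CPM in B-1a WT 1 and 2488 CPM in B-1b WT 2, and their part in the result was not tested.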

How the results depend on the processing

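All values here are log2 fold changes unless they are counts of genes called. In B-1a cells the count of members called by genotype was 0, where 7 of 13923 genes were called. It was 1 (Cd55) without a filter on low counts, where 318 of 38366 genes were called. For B-1a against B-2 cells it was 4, with 1080 of 18555 genes called. It was 0 in a fit of subset and genotype over all 21 libraries, where the libraries labelled WT 1 and WT 2 take part. That fit called 22 of 22597 genes. For B-1b against B-2 cells the same fit gave 0 in place of 3, with 0 of 22597 genes called in place of 399 of 18555. For B-1a against B-1b cells it was 0, with 38 of 18555 genes called. It was 1 (Cr2) with DESeq2 (0.649% of all genes called), without the filter (123 of 44737) and with a replicate block (103 of 18555). It was also 1 with the macrophage covariate (113 of 18555) and in the additive fit without WT 1 and WT 2 (100 of 27911). For the difference in effect between the B-1 subsets it was 0, with 0 of 15972 genes called. It was 2 (Fcer2a and Cr2) without the filter, where 144 of 41707 genes were called. Leaving out single libraries, the count was 2 to 3 for B-1b against B-2 cells, where 177 of 17044 to 768 of 18468 genes were called. For B-1a against B-1b cells it was 0 to 1, with 15 of 21147 to 57 of 18306 genes called. For the genotypes in B-2 cells, leaving out WT 1 or WT 4 leaves a lone WT library. Only log2 fold changes are given for that, further below.

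The same replicate number marked libraries of different groups, and the labels do not say that it marks a shared mouse. Deviations from the group means of same-numbered libraries correlated between 0.197 and 0.582 across the subsets of WT mice, between -0.112 and 0.232 across those of TET2-KO mice and between -0.145 and 0.369 across genotypes. No comparison made here rests on WT libraries of different subsets alone. Each comparison had a pair at or under 0.1, except the genotypes in B-2 cells with only 2 pairs. These correlations do not settle whether the numbers pair the libraries, and the main fits left the numbers out. A library correlated best with its own number in 11 of 16 cases across WT subsets, 12 of 20 across TET2-KO subsets and 0 of 8 across genotypes in B-1a, 1 of 6 in B-1b and 2 of 4 in B-2 cells. With the replicate block the count of members called was 0 by genotype in each subset. Over all genes, 48 of 13923 in B-1a, 0 of 14368 in B-1b and 0 of 19786 in B-2 cells were called. The count was 4 for B-1a against B-2 and 5 for B-1b against B-2 cells (adding Cd55 and Fcer1g). There 1638 and 667 of 18555 genes were called. For B-1a against B-1b cells the count was 1 (Cr2), where 103 of 18555 genes were called. No call was lost.

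Directions turned only for values that were not called. With the libraries labelled WT 1 and WT 2 left out, the effect in B-1a cells turned for Fcrl1 (0.51), in B-1b cells for Fcmr (0.17), Fcrla (-0.11) and Fcer1g (0.093), in B-2 cells for Fcer2a (-0.19), Cr2 (-0.33), Cd55 (-0.047) and Fcrl1 (-0.29), and in the difference between subsets for Cr2 (0.14), Fcmr (-0.47), Fcrl1 (0.33) and Fcrla (0.018). With the macrophage covariate it turned for Fcmr (0.32) and Fcer1g (0.24) in B-1a, for Fcer1g in B-1b (0.36) and B-2 cells (0.24) and in the difference (0.016), for Fcer1g in B-1a against B-2 cells (-0.0094) and for Fcrl5 in B-1a against B-1b cells (-0.040). With at least 10 counts in every library, Fcer1g turned in B-1b (0.0011) and B-2 cells (0.052) and in B-1a against B-2 cells (-0.013), Cr1l in B-1a against B-2 cells (-0.082) and Fcmr in B-1b against B-2 cells (-0.12). For Cr1l in B-1a against B-2 cells DESeq2 and RLE size factors gave -0.049 and -0.050, and for Fcmr in B-1b against B-2 cells -0.085 and -0.087. Fcmr there was also -0.023 without a filter, -0.19 with the block and -0.11 in the additive fit without WT 1 and WT 2. Fcrla in B-1a against B-2 cells turned to 0.055 in the additive fit over all libraries.

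Leaving out single libraries, these ranges crossed 0. In B-1a cells by genotype they were -0.34 to 0.11 for Fcmr, -0.83 to 0.19 for Fcrl1 and -0.47 to 0.11 for Fcer1g. In B-1b cells they were -0.18 to 0.53 for Fcrl1, -0.094 to 0.19 for Fcrla and -0.35 to 0.31 for Fcer1g. In B-2 cells they were -0.19 to 4.80 for Fcer2a, -0.33 to 3.30 for Cr2, -0.047 to 0.74 for Cd55, -0.31 to 0.019 for Cr1l, -0.29 to 1.40 for Fcrl1 and -0.64 to 1.08 for Fcer1g, the widest ends without WT 4 or WT 1. Between B-1a and B-2 cells they were -0.14 to 0.13 for Cr1l, -0.15 to 0.045 for Fcrla and -0.27 to 0.39 for Fcer1g, between B-1b and B-2 cells -0.14 to 0.094 for Fcmr, and between B-1a and B-1b cells -0.018 to 0.46 for Fcmr. In the difference between the effects they were -3.94 to 1.12 for Fcer2a, -2.43 to 0.26 for Cr2, -0.0081 to 0.53 for Fcmr, -1.12 to 0.071 for Fcrl1, -0.20 to 0.42 for Fcrl5 and -0.45 to 0.21 for Fcer1g.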
